A study of Phaseolus vulgaris with 12 samples.

Results

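PHAVU_008G175800g and PHAVU_008G176000g are neighbouring genes of dwarf bean that the study names Exordium. Both were taken by their gene identifiers, so the pair is 2 of the 27996 genes listed. The pair was chosen by the study's values in the comparison of well-watered 6PP plants with well-watered polymer plants, so what it shows in that comparison is given only as a description. The files give neither gene a symbol, and 0 of the 27996 identifiers matched the table of reference names used here, so the name Exordium rests on the study.

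Exordium proteins are secreted proteins of the plant cell wall space. In Arabidopsis, EXORDIUM is induced by brassinosteroids, the steroid hormones that promote cell expansion, and its loss reduces leaf growth, while the related EXORDIUM-LIKE1 acts in growth when carbon is short. Drought slows leaf expansion before it wilts the leaf, and abscisic acid, the hormone that closes stomata, accumulates in drying leaves.

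The samples were trifoliate leaves of the cultivar Messi in 4 groups, namely drought 6PP, drought polymer, well-watered 6PP and well-watered polymer plants. Seeds of the 6PP groups were coated with a polymer carrying 114 mM 6PP (6-pentyl-α-pyrone, a volatile lactone made by Trichoderma fungi), and seeds of the polymer groups with the same polymer without it. Drought plants went without irrigation for about 16 days and were sampled when wilting, and well-watered plants were irrigated throughout. Each group was sampled in 3 replicates, each pooling the leaves of 5 plants. The plants grew in 2 chambers, and no label says which library came from which chamber.

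Of the 12 samples, 10 were used, because the tables of drought 6PP replicates 1 and 2 could not be assigned to a sample, and the drought 6PP group was therefore 1 library (replicate 3). Gene reads per library ranged between 39974999 and 55648172. The drought 6PP library stood apart, with 86.1% of mapped reads on genes against 94.3% to 96.3% in the other 9 libraries, and 8.0% of gene reads on introns against 4.97% to 6.35%. The summed level of 4 genes of chlorophyll-binding proteins, which mark leaf tissue, was 299 TPM (a level scaled for gene length and library total) in the drought 6PP library and 1152 to 2068 TPM in drought polymer libraries, against 9586 to 10908 TPM in well-watered 6PP and 10098 to 10501 TPM in well-watered polymer libraries. All 4 were detected in every library. The study names these 4 genes among those that differed between 6PP and polymer plants under drought. Their gap between the drought 6PP and drought polymer libraries is therefore not independent of that choice. In such bulk samples, fewer cells of a type and less RNA per cell cannot be told apart, and the part of these shifts in the values of the exordium genes was not tested.

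The pair lies on chromosome 8, with coordinates as the files list them, without a named assembly. PHAVU_008G175800g runs from 46330427 to 46331806 and PHAVU_008G176000g from 46346937 to 46348002, both on the plus strand, 15130 bp apart, and each is annotated as 1 exon, of 1380 bp and 1066 bp in that order. Of all gene reads, 92.7% of those on PHAVU_008G175800g (4376 of 4721) and 90.7% of those on PHAVU_008G176000g (2083 of 2296) were placed at 1 position only. The shares per library were 89.9% to 98.2% and 86.6% to 96.4%, against 97.4% to 99.2% for all genes together. The remainder could belong to a similar sequence elsewhere, so the level of each gene is uncertain by at least that share. Any reads of these genes that were placed elsewhere are not in these totals, and their number is not known.

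PHAVU_008G175800g was a moderately expressed gene, and its TPM lay above that of 45.2% to 82.2% of all listed genes, depending on the library. Its total gene reads were 69 in the drought 6PP library, 319, 208 and 220 in the drought polymer libraries (replicates 1, 2 and 3), 852, 622 and 1232 in the well-watered 6PP libraries, and 623, 424 and 152 in the well-watered polymer libraries. The corresponding levels were 1.80 TPM in the drought 6PP library, 8.24, 5.62 and 6.20 TPM in drought polymer, 22.3, 17.4 and 31.4 TPM in well-watered 6PP, and 17.2, 8.61 and 3.92 TPM in well-watered polymer libraries. The lowest value was that of the drought 6PP library and the 3 highest were those of well-watered 6PP plants. On a log scale, well-watered polymer plants had the widest spread, and their range in TPM covered all 3 drought polymer libraries.

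PHAVU_008G176000g had a lower ceiling, with TPM above that of 42.9% to 65.5% of all listed genes. Its total gene reads were 138 in the drought 6PP library, 427, 301 and 254 in the drought polymer libraries, 267, 201 and 349 in the well-watered 6PP libraries, and 126, 149 and 84 in the well-watered polymer libraries. In TPM these were 4.62 in the drought 6PP library, 14.3, 10.5 and 9.23 in drought polymer, 9.08, 7.29 and 11.5 in well-watered 6PP, and 4.51, 3.93 and 2.80 in well-watered polymer libraries. Here the drought polymer libraries, not the well-watered 6PP libraries, held the highest value, and the well-watered polymer libraries were the 3 lowest.

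**Figure D1:**
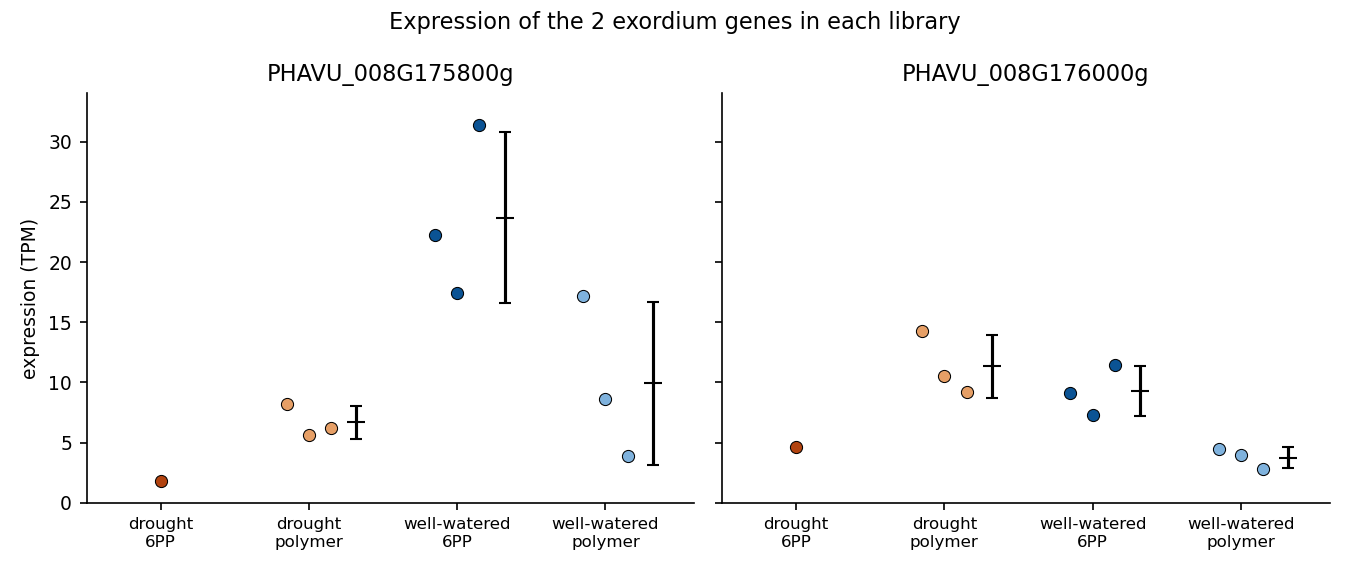
Expression (TPM, linear axis) of PHAVU_008G175800g (left) and PHAVU_008G176000g (right) in each of the 10 libraries, by group. Points are libraries and the black marks beside groups of 3 are mean ± SD. The single drought 6PP library is the lowest of all for PHAVU_008G175800g at 1.80 TPM, and for PHAVU_008G176000g the well-watered polymer libraries are lowest at 2.80 to 4.51 TPM.

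Ordered by mean level, PHAVU_008G175800g had 23.7 ± 7.07 TPM in well-watered 6PP, 9.91 ± 6.74 TPM in well-watered polymer and 6.69 ± 1.37 TPM in drought polymer plants (SD, n = 3 each), with the drought 6PP library below at 1.80 TPM. The neighbours in that order, well-watered polymer and drought polymer plants, did not differ beyond their spread. For PHAVU_008G176000g the order was drought polymer with 11.3 ± 2.62 TPM, well-watered 6PP with 9.28 ± 2.10 TPM, the drought 6PP library with 4.62 TPM and well-watered polymer with 3.74 ± 0.87 TPM (SD, n = 3 for each group of libraries). Its top 2 groups overlapped, and the drought 6PP library was just above the highest well-watered polymer library (4.51 TPM).

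The comparison of drought with well-watered plants within the polymer coating asks how each gene responds to water shortage without 6PP. PHAVU_008G176000g was higher under drought in polymer plants, whereas the drought response of PHAVU_008G175800g was not distinguishable from replicate spread. This comparison shares its 3 well-watered polymer libraries with the one on which the study named the genes, so it is not independent of that choice. In CPM (read counts scaled by library size), PHAVU_008G176000g had 7.53 ± 1.54 CPM in drought polymer and 2.51 ± 0.54 CPM in well-watered polymer plants (SD, n = 3 each). The lowest drought library (6.13 CPM) exceeded the highest well-watered one (3.01 CPM), a pattern found for 33.4% of all genes tested in this comparison.

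The log2 fold change of PHAVU_008G176000g was 1.58 (SE 0.26, 95% interval 1.02 to 2.15, FDR 0.000275, edgeR quasi-likelihood test, Benjamini-Hochberg over 22398 genes). An FDR of at most 0.05 with a higher level under drought was reached by 27.3% of genes tested. Calls used 3 limits, 0.6 for the absolute log2 fold change, 0.01 for the FDR and 0.05 for the Bonferroni-adjusted p, and 12.3% of genes were called, 5.12% with a higher level under drought. PHAVU_008G176000g met the fold and FDR limits, as did 8126 genes, but its Bonferroni-adjusted p was 1 in the edgeR quasi-likelihood test, so it was not called. It was called with the DESeq2 Wald test (log2 fold change 1.56, FDR 9.47e-08) and with the edgeR likelihood ratio test (1.58, FDR 9.77e-08). There were 1473 genes with a higher log2 fold change in this comparison, so many genes had a larger increase. Its fold change was similar in a fit of the polymer libraries alone, without the drought 6PP library that stood apart, at 1.57 on the log2 scale (FDR 0.000585, edgeR quasi-likelihood test).

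PHAVU_008G175800g had 5.73 ± 0.98 CPM in drought polymer and 8.57 ± 5.78 CPM in well-watered polymer plants (SD, n = 3 each). Its drought libraries (5.02 to 6.85 CPM) all lay within the well-watered range (3.51 to 14.9 CPM). The log2 fold change was -0.58 (SE 0.41, 95% interval -1.49 to 0.33, FDR 0.258, edgeR quasi-likelihood test, Benjamini-Hochberg), and the interval includes both no change and a fall larger than the fold limit. Its value rested on single well-watered libraries. It was 0.068 without well-watered polymer replicate 1 (FDR 0.876) and -0.95 without well-watered polymer replicate 3 (FDR 0.0317, edgeR quasi-likelihood test), and no fit met the 3 limits.

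The spread of PHAVU_008G175800g in well-watered polymer plants was wide for a gene of these libraries. The SD of its log2 CPM there was 1.03, the highest library was 4.23 times the lowest, and 8.53% of genes had a larger SD in that group, where the median over all genes was 0.20. In drought polymer plants its SD was 0.24 and in well-watered 6PP plants 0.48. PHAVU_008G176000g had an SD of log2 CPM of 0.29, 0.38 and 0.31 in drought polymer, well-watered 6PP and well-watered polymer plants. In the fit, the biological coefficient of variation was 0.351 for PHAVU_008G175800g, against 0.176 for genes of its level, and 0.224 for PHAVU_008G176000g, against 0.232.

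The relative level of the 2 genes separated the water regimes in every library. The ratio of the TPM of PHAVU_008G175800g to that of PHAVU_008G176000g was 0.389 in the drought 6PP library, 0.577, 0.534 and 0.672 in drought polymer, 2.45, 2.39 and 2.73 in well-watered 6PP, and 3.82, 2.19 and 1.40 in well-watered polymer libraries. The first gene was thus the less abundant of the pair per length in all 4 drought libraries, and the more abundant in all 6 well-watered libraries. How many other gene pairs separate the regimes was not computed, so this is not shown to be particular to the pair. Among single genes, 33.4% had every drought polymer library above every well-watered polymer library. That share counts only higher levels under drought and leaves out the 6PP libraries, so it is not a like measure for the ratio. On the log2 CPM scale, the level of PHAVU_008G175800g minus that of PHAVU_008G176000g was -0.38 ± 0.16 in drought polymer and 1.54 ± 0.73 in well-watered polymer plants (SD, n = 3 each). The difference between the regimes was -1.92, with an exact two-sided permutation p of 0.1, the smallest that 3 against 3 libraries allow, so the design cannot pass 0.05. In well-watered 6PP plants the same log2 difference was 1.70 ± 0.10 (SD, n = 3), and in the drought 6PP library it was -0.98. Its SD was below that of either gene alone in well-watered 6PP plants (0.48 and 0.38) and in drought polymer plants (0.24 and 0.29). In well-watered polymer plants its SD of 0.73 lay between those of PHAVU_008G176000g (0.31) and PHAVU_008G175800g (1.03).

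**Figure D2:**
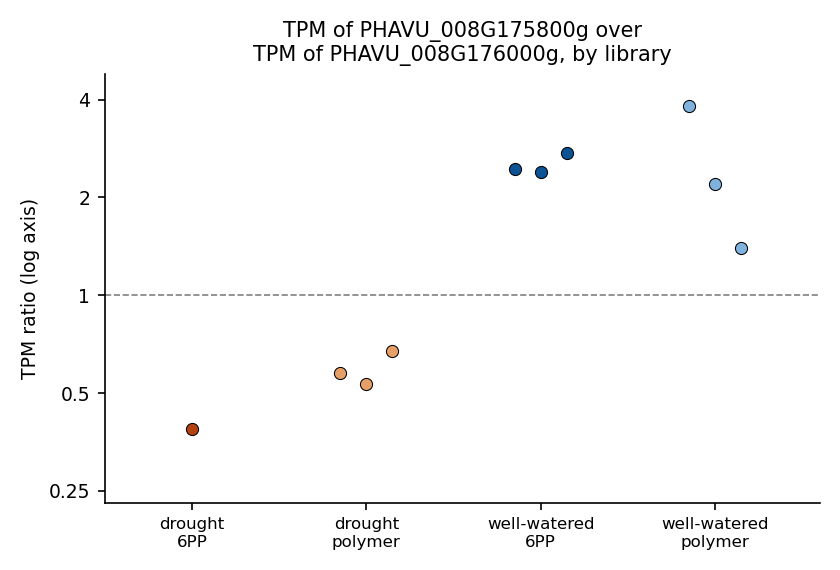
Ratio of the TPM of PHAVU_008G175800g to the TPM of PHAVU_008G176000g in each library (log axis), by group, with a dashed line at 1. Points are libraries. The 4 drought libraries lie below the line at 0.389 to 0.672 and the 6 well-watered libraries above it at 1.40 to 3.82.

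The comparison of 6PP with polymer in well-watered plants is the one that chose both genes, and its values are given here as a description. PHAVU_008G175800g had 21.9 ± 7.18 CPM in well-watered 6PP and 8.57 ± 5.78 CPM in well-watered polymer plants, and PHAVU_008G176000g had 6.62 ± 1.72 CPM in well-watered 6PP and 2.51 ± 0.54 CPM in well-watered polymer plants (SD, n = 3 each). Every 6PP library exceeded every polymer library for both genes, as for 5.16% of all genes, but for PHAVU_008G175800g the lowest 6PP library (15.2 CPM) barely exceeded the highest polymer library (14.9 CPM). The log2 fold changes of the 2 genes were close to each other, at 1.36 and 1.40. In the same edgeR quasi-likelihood fit over all genes, 0 genes met the 3 limits in this comparison. Neither gene of the pair was thus called. The study, with these limits in CLC Genomics Workbench, reports both as upregulated here. The DESeq2 Wald and edgeR likelihood ratio tests were not run on this comparison. Between drought and well-watered polymer plants they called 6225 and 6298 genes, against 2760 in the quasi-likelihood test. The 0 therefore holds for this test only and is no check on the study's list. The log2 fold change of PHAVU_008G175800g ranged between 0.99 and 2.01 in fits that omitted 1 library. These ends came from omitting replicates 3 and 1 of the well-watered polymer group in that order.

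Under drought, the comparison of 6PP with polymer asks whether the coating changes the level of the genes in stressed leaves. The drought 6PP library had lower levels of both genes than any of the 3 drought polymer libraries. With 1 library of drought 6PP plants, the difference has no replicate check and was not tested. For PHAVU_008G175800g the drought 6PP library had 1.93 CPM and drought polymer plants 5.73 ± 0.98 CPM (SD, n = 3), a log2 CPM difference of -1.54. For PHAVU_008G176000g the drought 6PP library had 3.85 CPM and drought polymer plants 7.53 ± 1.54 CPM (SD, n = 3), a log2 CPM difference of -0.94. Both genes were below every drought polymer library and at least 0.6 (log2 CPM) below their mean, as were 25.4% of all genes tested, so such a position was common, and the median difference over all genes was -0.089. On the log2(TPM + 0.1) scale that median was -0.37, and relative to it the differences of the 2 genes were -1.45 and -0.88. The exact Poisson intervals (95%) of the reads in the drought 6PP library were 53.7 to 87.3 for the 69 reads of PHAVU_008G175800g and 116 to 163 for the 138 reads of PHAVU_008G176000g, and they cover counting error only.

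Within 6PP plants, drought was set against well-watered with the same single drought library, again without a test. PHAVU_008G175800g had 1.93 CPM in the drought 6PP library against 15.2 to 29.5 CPM in well-watered 6PP libraries, a log2 CPM difference of -3.42. PHAVU_008G176000g had 3.85 CPM in the drought 6PP library against 4.91 to 8.35 CPM in well-watered 6PP libraries, a log2 CPM difference of -0.74. Both genes were below every well-watered 6PP library and at least 0.6 (log2 CPM) below their mean, as were 34.2% of genes tested, and the median difference over all genes was -0.077. For PHAVU_008G176000g the difference between drought and well-watered plants was thus negative in 6PP plants (-0.74) and positive in polymer plants (1.58), and the difference between the 2 was not tested. Both well-watered groups that serve as baselines here are those on which the pair was chosen, as higher in 6PP than in polymer plants, and that choice by itself favours a lower value in 6PP plants and a higher one in polymer plants. The 4 comparisons share libraries in pairs, so their values are set side by side and not correlated.

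**Figure D3:**
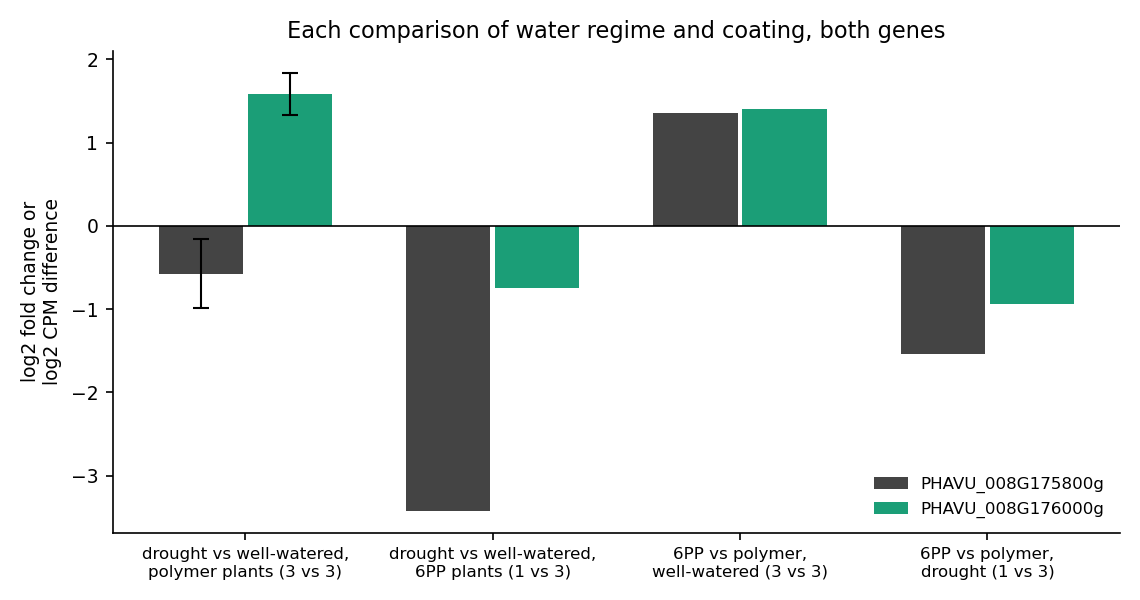
Change of each gene in the 4 comparisons of water regime and coating, as log2 fold change of the fit (3 libraries against 3) or log2 CPM difference (1 library against 3), for PHAVU_008G175800g (dark) and PHAVU_008G176000g (green). Error bars on the drought comparison in polymer plants are standard errors, and the other bars carry none because they are given as descriptions. The bars of the 2 genes point opposite ways only in the drought comparison of polymer plants, at -0.58 and 1.58.

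One gene is listed between the pair, PHAVU_008G175900g (46344652 to 46345444, plus strand, 3 exons), 12845 bp after PHAVU_008G175800g and 1492 bp before PHAVU_008G176000g. It had 0 reads in all 10 libraries. A count of 0 allows up to 3 reads. Scaled by total gene reads alone, that is 0.0539 to 0.0750 CPM per library, far below either exordium gene in every library. No transcript of it was detectable at this depth in any group.

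The nearest expressed neighbours lay farther off and moved in both directions. PHAVU_008G175700g, 28028 bp before the pair, had 1 read in the drought 6PP library, 2, 0 and 1 in drought polymer, 36, 9 and 18 in well-watered 6PP and 8, 10 and 12 in well-watered polymer libraries. With a log2 fold change of -3.06 (FDR 0.0243, edgeR quasi-likelihood test) between drought and well-watered polymer plants, it was not called. PHAVU_008G176100g, 13810 bp after the pair, had 30 reads in the drought 6PP library, 145, 82 and 47 in drought polymer, 4, 15 and 2 in well-watered 6PP and 0, 6 and 1 in well-watered polymer libraries. Every drought polymer library of this gene exceeded every well-watered polymer library, as for 33.4% of all genes tested. The log2 fold change was 5.40 (SE 0.96, FDR 0.000541, edgeR quasi-likelihood test), but its Bonferroni-adjusted p was 1 and the gene was not called. The files give no function for either neighbour.

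Over the 10 listed genes on each side of the pair, 14 of 20 were tested and 3 were called between drought and well-watered polymer plants, all 3 with lower levels under drought, against the 12.3% of all genes called. The median log2 fold change of the 14 was -1.05, against -0.0069 over all genes. On the log2(TPM + 1) scale, which compresses changes of genes with few reads, the median of the 14 was -0.37. PHAVU_008G175300g had 6 reads in the drought 6PP library and 2, 0 and 2 in drought polymer libraries, against 2428, 3098 and 4246 in well-watered 6PP and 3948, 4991 and 3590 in well-watered polymer libraries. Its log2 fold change in polymer plants was -11.34 (FDR 2.04e-09, edgeR quasi-likelihood test), a near-complete loss of reads. PHAVU_008G175500g and PHAVU_008G176700g had log2 fold changes of -5.24 (FDR 1.01e-07) and -1.22 (FDR 4.57e-06) in the same edgeR quasi-likelihood test.

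**Figure D4:**
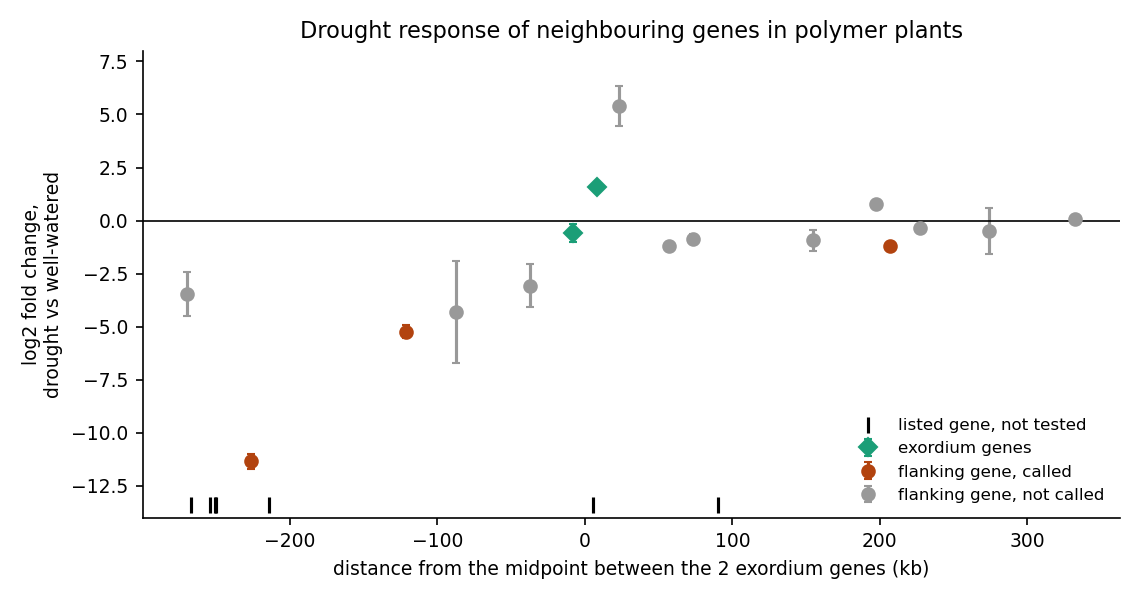
Log2 fold change between drought and well-watered polymer plants (edgeR fit, ± SE) of the 2 exordium genes (green diamonds) and of tested flanking genes (red if called, grey if not), by distance from the midpoint between the pair in kb. Ticks near the lower edge are listed genes that were not tested, among them the gene between the pair. PHAVU_008G176000g (1.58) and the next gene on its far side (5.40) lie above 0, and the called genes lie at -11.34, -5.24 and -1.22.

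Across the 10 libraries, the log2 CPM of the 2 exordium genes had a Pearson correlation of 0.36, which ranked PHAVU_008G176000g 7854 among 22397 genes by likeness to PHAVU_008G175800g. These correlations are descriptions, since libraries of a group share their condition. The genes most like PHAVU_008G175800g were PHAVU_002G326000g (r = 0.92), PHAVU_011G214200g (0.91), PHAVU_011G095600g (0.90), PHAVU_005G127100g (0.90) and PHAVU_008G161200g (0.90). None of these 5 was called between drought and well-watered polymer plants, against 12.3% of all genes, and their log2 fold changes were -0.92 to -0.14. The libraries of that comparison are among those that chose the 5 genes, so these values are not independent of the choice.

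Most like PHAVU_008G176000g were PHAVU_009G032100g (r = 0.93), PHAVU_003G230500g (0.91), PHAVU_002G122200g (0.87), PHAVU_005G018400g (0.87) and PHAVU_003G040000g (0.86), again over 10 libraries. Their log2 fold changes between drought and well-watered polymer plants were all positive, at 0.26 to 1.21. None was called, against 12.3% of all genes. These genes were chosen by likeness over libraries that include those of this comparison, where PHAVU_008G176000g rose. The choice itself thus favours positive values. The study places PHAVU_002G122200g in abscisic acid metabolism, and it was named on the same well-watered comparison as the exordium genes. The libraries of that comparison are among the 10 used here, so the study's choice also favours this likeness (0.87). The log2 fold change of PHAVU_002G122200g under drought in polymer plants was 0.73 (SE 0.28, FDR 0.0428, edgeR quasi-likelihood test).

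Of 17 symbols listed for exordium and brassinosteroid genes, 0 matched a gene in the files, where 152 genes carry a symbol of their own. One brassinosteroid gene outside that list was found among those symbols and was chosen after the symbols were seen. It is CYP85A (PHAVU_008G028800g), an oxidase of the last steps of brassinosteroid synthesis. CYP85A reached 19.2 CPM in the only drought 6PP library, 15.9, 12.3 and 12.0 CPM in drought polymer, 23.3, 17.3 and 22.9 CPM in well-watered 6PP and 31.0, 19.3 and 24.9 CPM in well-watered polymer libraries. Between drought and well-watered polymer plants, CYP85A had a log2 fold change of -0.90 (SE 0.19, FDR 0.00165, edgeR quasi-likelihood test). It was not called because its Bonferroni-adjusted p was 1. In either direction, an FDR of at most 0.05 was reached by 12588 of the 22398 genes tested, so such a value was common.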

How the data were processed

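RNA was sequenced as 150-bp paired-end reads. The authors mapped and counted reads in CLC Genomics Workbench 21.0.4 and deposited, per gene, raw counts (total, unique, exon and intron reads), TPM and RPKM. Their methods name the BAT93 genome, and the tables name no assembly. In the deposited TPM and RPKM values, reads on exons are divided by length and by a library total, and RPKM served only to recover the mapped total.

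Total gene reads of 10 libraries were tested in edgeR 4.0.16 (R 4.3.3), with TMM normalization, filterByExpr (22398 of 27996 genes kept) and the quasi-likelihood test in 1 fit of 4 group means, where the design had allowed for 12. CPM are TMM-scaled, and log2 CPM used a prior count of 2. The calling limits are those of the study. The test was tested on simulated data for drought against well-watered polymer plants (22027 genes tested), where it called 30% of 100 genes changed by 1 (log2), 82% of 100 changed by 2 and 0 unchanged genes. The simulated counts were drawn with the spread estimated in the fit itself. Changed genes were few and taken only from those with an average log2 CPM above 0. These shares may therefore not carry over to the real libraries. The file of drought 6PP replicate 1 held 12 unlabelled tables, and that of replicate 2 held 2, of which the first had 1033823623 gene reads and the other was identical to replicate 3 and counted once. The labels call replicates biological, each a pool.

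Named genes are the pair, the gene between, the adjacent and called genes among 10 on each side, and the 5 most correlated with each. The members and lists were chosen with earlier results of these data known. Alternatives used DESeq2 1.42.0, limma 3.58.1 on log2 TPM with pseudocounts of 1 and 0.1, other normalizations and filters, unique reads, a replicate block and left-out libraries. Counts of exon reads were added after the data were examined. Permutations used scipy 1.17.1. No sequence of the genes is printed.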

Additional observations from a re-analysis of the deposited data

Results flagged for a closer look

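The coating difference of PHAVU_008G175800g had opposite signs in the water regimes. The drought 6PP library lay below every drought polymer library (log2 CPM difference -1.54), whereas every well-watered 6PP library lay above every well-watered polymer library (log2 fold change 1.36). Of all genes tested, 25.4% were below every drought polymer library and at least 0.6 (log2 CPM) below their mean, and 5.16% had the well-watered position. How many genes had both was not counted. The well-watered sign was set by the choice of the pair.

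PHAVU_008G176000g showed the same opposition, with a log2 CPM difference of -0.94 between 6PP and polymer under drought and a log2 fold change of 1.40 in well-watered plants. Its water response also differed in sign between coatings, at -0.74 (log2 CPM difference, 1 drought library) in 6PP plants and 1.58 (log2 fold change) in polymer plants. The well-watered libraries that chose the pair are the baselines of both values, so the choice itself favours this opposition, and it is given as values only.

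With 1 drought 6PP library, none of these 3 differences was tested, and each uses the library with the lowest share of mapped reads on genes (86.1%).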

How the results depend on the processing

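Of 134 alternatives over 11 results, 124 kept the direction and the side of the threshold, or a value within the replicate spread or a count within 1.5 times. This tally includes 11 alternatives per gene for the well-watered coating comparison, whose sign was set by the choice of the pair. It also includes 12 of the exact test of the ratio, which could not change side because its p cannot fall below 0.1. The number of genes called between drought and well-watered polymer plants was 2760, and it was 6225 with the DESeq2 Wald test, 6298 with the edgeR likelihood ratio test and 1668 to 2130 with 1 library left out. PHAVU_008G176000g was called with those same tests (log2 fold change 1.56 and 1.58) and in no other alternative, and its log2 fold change was 1.42 to 1.73 with each library left out. That of PHAVU_008G175800g was -0.95 to 0.068 with each library left out, reversed only without well-watered polymer replicate 1. On the log2(TPM + 0.1) scale the differences between the drought 6PP library and drought polymer plants were -1.82 for PHAVU_008G175800g and -1.25 for PHAVU_008G176000g. Of the 14 flanking genes tested, 6 were called with the DESeq2 Wald test (2 higher and 4 lower under drought), which called 27.8% of all genes, against 3 in the quasi-likelihood test. The cause of these shifts was not tested.

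With a replicate block, 2267 genes were called, and the log2 fold changes were -0.50 (FDR 0.306) for PHAVU_008G175800g and 1.58 (FDR 0.000542, edgeR quasi-likelihood test) for PHAVU_008G176000g. The replicate numbers were not taken as pairs, since the labels give them no shared origin. Correlations of same-numbered deviations ran from -0.092 to 0.16 and passed 0.1 only for replicate 2 between the well-watered groups. Even so, 6 of 9 were highest with their own number. The low counts of PHAVU_008G175800g in the drought 6PP library (69 reads) and the single library of that group limit what can be said of 6PP under drought.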
